A study of Homo sapiens with 6 samples.

Results

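The receptors for fibroblast growth factors (FGFR1, FGFR2, FGFR3 and FGFR4) and for the epidermal growth factor family (EGFR, ERBB2, ERBB3 and ERBB4) are 8 of the 63299 genes in the deposited count table. FGFR2 was picked because its transcript was among those with the largest rises between the study's groups, and the other 7 were added by family name. The values of FGFR2 are therefore given as a description with no test. The study sequenced RNA from LNCaP, an established human prostate cancer line that responds to androgen. A short hairpin RNA directed at MEP50 was switched on in 3 libraries with doxycycline (knockdown), and the other 3 libraries came from LNCaP cells without doxycycline and without knockdown (control), for which the labels do not say whether they carried the hairpin. The question was which genes change when MEP50 is lowered. MEP50, the product of the WDR77 gene, is the partner protein of PRMT5, an enzyme that puts symmetric dimethyl marks on arginines. No library had doxycycline without knockdown, so the drug and the knockdown cannot be told apart. The hairpin sequence, the dose, the duration and whether the line is 1 clone are not given in the sources used here.

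FGF and ERBB receptors are receptor tyrosine kinases: a ligand outside the cell brings receptors together, and the kinase domains inside then phosphorylate each other and pass the signal to the RAS-ERK and PI3K pathways. FGF receptors need heparan sulfate chains as well as the ligand, while ERBB receptors work in mixed pairs, in which ERBB2 has no known ligand of its own and ERBB3 has a weak kinase. In the prostate, FGFR2 in epithelial cells receives FGFs made by the stroma, and EGFR, ERBB2 and ERBB3 are known to feed into androgen receptor signalling in prostate cancer cells.

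The libraries held 18568002 to 36234784 counts on genes. WDR77 had 15.05, 14.03 and 12.73 CPM (read counts scaled to a common library size) in knockdown replicates 1 to 3, against 49.28, 47.16 and 36.71 CPM in control replicates 1 to 3, so the knockdown was present in every library labelled with it (log2 fold change -1.67, SE 0.16, adjusted p 0.00131). PRMT5 averaged 145 ± 3.73 CPM in knockdown libraries and 210 ± 16 CPM in control libraries (SD, n = 3 each), a log2 fold change of -0.53 (adjusted p 0.0268; it rose above 0.05, up to 0.119, when any 1 library except control replicate 2 was dropped). The 8 luminal prostate markers were all detected, KLK3 included, and their summed level was 3930 to 4590 CPM in knockdown libraries and 7020 to 8270 CPM in control libraries. Of the basal markers KRT5 had 0 reads in all 6 libraries, and the 3 basal markers summed to at most 0.229 CPM in knockdown libraries and 1.11 CPM in control libraries. The 3 neuroendocrine markers summed to 12.9 to 22.1 CPM in knockdown libraries and 23 to 32 CPM in control libraries. The 3 stromal markers summed to 9.43 to 12.6 CPM in knockdown libraries and 5.35 to 14.4 CPM in control libraries, nearly all of it COL1A1. In bulk RNA, fewer cells of a type and less RNA per cell cannot be told apart. The part of the lower luminal level in the results below was not tested.

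Per length of transcript, the ERBB receptors other than ERBB4 were the abundant ones and the FGF receptors were scarce. In RPKM (CPM per kilobase of merged exons), ERBB3, the kinase-poor partner, averaged 19.5 ± 3.57 in knockdown libraries and 24.7 ± 2.56 in control libraries (SD, n = 3 each). ERBB2, the receptor without a ligand, averaged 15.8 ± 3.33 RPKM in knockdown libraries and 19.9 ± 4.62 in control libraries. EGFR averaged 6.86 ± 0.535 RPKM in knockdown libraries and 7.54 ± 1.43 in control libraries. ERBB3 and ERBB2 overlapped in their ranges in both groups, though ERBB3 was the higher of the 2 within each library, by a ratio of 1.19 to 1.28 in knockdown libraries and 1.13 to 1.47 in control libraries. EGFR stood below both without overlap. In replicate 3 the order of ERBB3 above ERBB2 came from the merged lengths. There ERBB2 had more CPM than ERBB3, at 198.3 against 197.5 in the knockdown library and 249.5 against 235.5 in the control library. In replicates 1 and 2 of each group ERBB3 had more CPM as well.

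The FGF receptors came next. FGFR4 averaged 1.24 ± 0.286 RPKM in knockdown libraries and 0.959 ± 0.334 RPKM in control libraries. FGFR1 averaged 0.62 ± 0.0842 RPKM in knockdown libraries and 0.664 ± 0.0575 in control libraries, and FGFR3 averaged 0.521 ± 0.237 RPKM in knockdown libraries and 0.585 ± 0.348 in control libraries. FGFR4 lay above FGFR1 without overlap in either group, and FGFR1 and FGFR3 could not be ordered because their ranges overlapped. FGFR2 was the scarcest of the FGF receptors in both groups, at 0.334 ± 0.0615 RPKM in knockdown libraries and 0.0566 ± 0.0163 RPKM in control libraries. Its range overlapped that of FGFR3 in knockdown libraries (0.264 to 0.379 against 0.265 to 0.733 RPKM) and lay far below it in control libraries (0.04 to 0.0726 against 0.295 to 0.971 RPKM). ERBB4 was at the bottom in both groups, and the order of the 8 means was the same in knockdown and control libraries. The lengths are those of all exons merged, so a gene with many rarely used exons has its level understated. In CPM, which is not scaled to length, FGFR1 averaged above FGFR4. The means were 7.88 against 5.97 CPM in knockdown libraries and 8.43 against 4.63 CPM in control libraries.

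**Figure D1:**
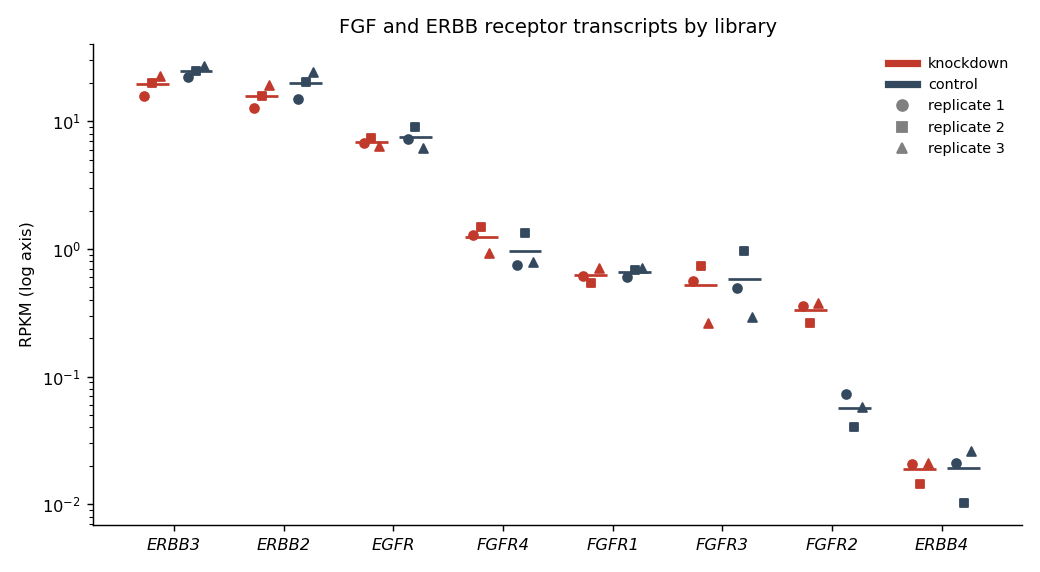
Transcript level of each receptor in RPKM on a log axis, in knockdown (red, left of each pair) and control (dark) libraries; symbols mark the replicate and bars the mean of 3 libraries. FGFR2 sits between 0.264 and 0.379 RPKM in knockdown libraries and between 0.04 and 0.0726 RPKM in control libraries, while the other receptors overlap between the groups.

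FGFR2 encodes a receptor that exists in an epithelial and a mesenchymal splice form with different ligands. The gene (ENSG00000066468.21) lies on the minus strand of chromosome 10, from 121478334 to 121598458 in hg38. It had 50, 73 and 62 reads in knockdown replicates 1 to 3, against 14, 9 and 15 reads in control replicates 1 to 3. In CPM these were 2.68, 1.97 and 2.84 in knockdown libraries and 0.543, 0.3 and 0.428 in control libraries. Every knockdown library was above every control library, including knockdown replicate 1, the shallowest of the 6. The counts are small: exact 95% Poisson intervals, which cover counting error only, ran from 37.1 to 65.9 reads for the lowest knockdown count and from 8.4 to 24.7 reads for the highest control count. The fitted difference was a log2 of 2.55 (SE 0.32), or 5.84-fold. Within pairs of libraries with the same replicate number the log2 ratio was 2.3, 2.72 and 2.73, so all 3 pairs showed a rise of like size. Among the 382 coding genes called higher whose average reached 1 CPM in knockdown or control libraries, this was rank 7, the position for which FGFR2 was picked. Gene counts do not separate the splice forms.

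Promoter sequence from RefSeq (GRCh38.p14) is shown for FGFR2, whose level differed most between the groups, beside its paralog FGFR3, whose level overlapped. The windows run 5′ to 3′ on the gene's strand and end at or before the transcript start, without bases in annotated exons. Capitals mark GC boxes, the letters GGGCGG or CCGCCC on either strand, which Sp1-type factors are known to bind. The FGFR2 window is chr10:121598459-121598694, minus strand, 236 bases, and the FGFR3 window is chr4:1793043-1793292, plus strand, 250 bases.
FGFR2: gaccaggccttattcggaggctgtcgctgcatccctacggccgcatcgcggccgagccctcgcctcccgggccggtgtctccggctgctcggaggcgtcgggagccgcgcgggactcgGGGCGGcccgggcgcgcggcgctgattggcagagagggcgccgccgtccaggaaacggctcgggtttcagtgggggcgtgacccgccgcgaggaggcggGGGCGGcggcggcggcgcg
FGFR3: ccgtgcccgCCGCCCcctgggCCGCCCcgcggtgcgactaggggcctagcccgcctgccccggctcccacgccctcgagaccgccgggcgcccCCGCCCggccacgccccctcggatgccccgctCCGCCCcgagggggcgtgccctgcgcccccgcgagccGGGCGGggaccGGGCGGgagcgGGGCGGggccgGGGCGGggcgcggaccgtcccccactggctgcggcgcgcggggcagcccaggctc

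Both printed windows were rich in G and C, with 78.0% for FGFR2 and 86.8% for FGFR3, and each held 40 CG pairs. The median over 35114 RefSeq windows of 250 bases was 58.0% G and C and 11 CG pairs, with an upper quartile of 68.0% and 23. The FGFR2 stretch held 2 GC boxes and the FGFR3 stretch 8, and 42.6% of all windows held at least 1. The FGFR2 stretch is shorter because 14 exon bases were left off. Its whole window of 250 bases held 3 GC boxes, 42 CG pairs and 78.4% G and C. FGFR2 also had 1 CCAAT box (CCAAT or ATTGG, either strand), which did not overlap a GC box and was absent from the FGFR3 stretch. That box occurs in 32% of all windows. RefSeq lists 5 starts for FGFR2, and the counts do not tell which was used. The windows of the other 4 starts had 42.8 to 50% G and C, 3 to 7 CG pairs and at most 1 GC box, so the printed window does not stand for all of them. Windows were found for 6 of the 8 receptors.

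None of the other FGF receptors was called. FGFR1, which has epithelial and mesenchymal splice forms like FGFR2, had 7.82, 6.84 and 8.98 CPM in knockdown replicates 1 to 3, against 7.61, 8.69 and 8.99 CPM in control replicates 1 to 3. The groups overlapped, with a log2 fold change of -0.1 (95% interval -0.51 to 0.31, adjusted p 0.776). FGFR3 had 2.73, 3.54 and 1.28 CPM in knockdown libraries and 2.37, 4.7 and 1.43 CPM in control libraries. FGFR3 followed the replicate number more than the group: replicate 2 was the highest and replicate 3 the lowest in both. Its log2 fold change was -0.15 with a wide interval of -1.22 to 0.92 (adjusted p 0.88), so a 2-fold fall is inside it. With a term for the replicate number in the fit, the interval narrowed to -0.62 to 0.32 (adjusted p 0.663), and a 2-fold fall is outside it. FGFR4, the main receptor for FGF19 together with the co-receptor KLB, had 6.21, 7.22 and 4.49 CPM in knockdown libraries and 3.61, 6.49 and 3.8 CPM in control libraries. FGFR4 was higher in all 3 pairs, by a log2 of 0.78, 0.15 and 0.24, but the groups overlapped and the fitted 0.37 was not called (interval -0.28 to 1.02, adjusted p 0.464).

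Within the FGF receptor family, FGFR2 made up 12.7 ± 3.96% of the summed FGF receptor RPKM in knockdown libraries and 2.74 ± 1.28% in control libraries. The lowest knockdown share was 8.7% and the highest control share 3.8%. By RPKM FGFR4 stayed the largest part, at 45.2 ± 4.3% in knockdown libraries and 42 ± 2.58% in control libraries. The summed FGF receptor level was 2.71 ± 0.387 RPKM in knockdown libraries and 2.27 ± 0.672 RPKM in control libraries, and these overlapped. In the ERBB family, ERBB3 made up 46.1 ± 1.17% in knockdown libraries and 47.5 ± 2.14% in control libraries, and ERBB2 made up 37.3 ± 2.12% in knockdown libraries and 37.8 ± 4.1% in control libraries. These shares are descriptions and were not tested.

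**Figure D2:**
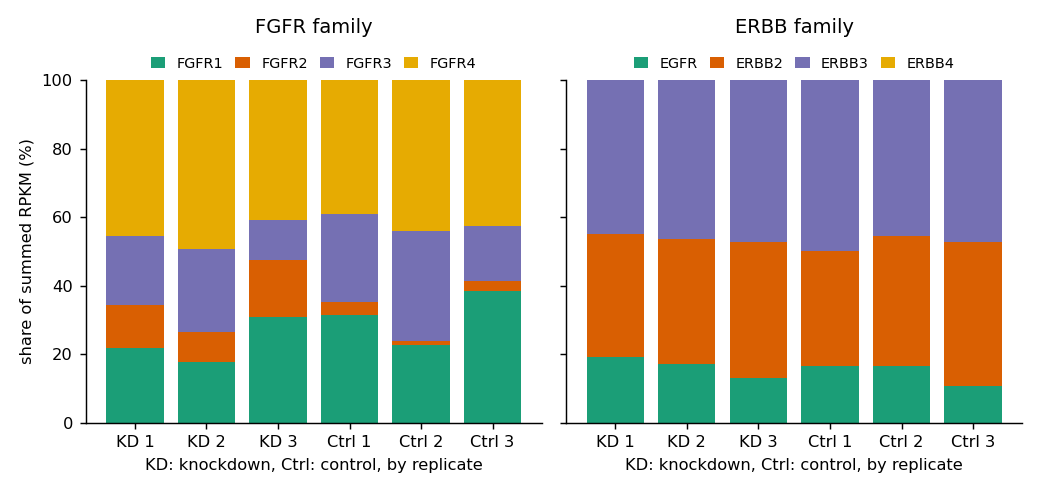
Share of each receptor in the summed RPKM of its family (percent, stacked bars from 0 to 100), with the 3 knockdown libraries left of the 3 control libraries in each panel. FGFR2 takes 8.7 to 16.6% of the FGF receptor sum in knockdown libraries and 1.32 to 3.8% in control libraries; ERBB4 is too small to see.

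No ERBB receptor was called without a term for the replicate number, and ERBB2 and ERBB3 were lower with it. EGFR had 84.9, 92.9 and 79.6 CPM in knockdown replicates 1 to 3, against 91.6, 113 and 77.9 CPM in control replicates 1 to 3. The groups overlapped and the log2 fold change was -0.14 (interval -0.49 to 0.21, adjusted p 0.628). ERBB2 had 129.6, 162 and 198.3 CPM in knockdown libraries and 154.7, 211.7 and 249.5 CPM in control libraries. ERBB3 had 136.2, 173.7 and 197.5 CPM in knockdown libraries and 191.3, 213.7 and 235.5 CPM in control libraries. Both genes were lowest in replicate 1 and highest in replicate 3 of each group, so the groups overlapped while every knockdown library was below the control library of the same number.

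The log2 ratios of those pairs were -0.26, -0.39 and -0.33 for ERBB2, and -0.49, -0.3 and -0.25 for ERBB3. Being lower in all 3 pairs was common, at 29.0% of tested genes. Without a term for the replicate number, ERBB2 had a log2 fold change of -0.33 (interval -0.8 to 0.13, adjusted p 0.36) and ERBB3 one of -0.34 (interval -0.69 to 0.02, adjusted p 0.229), and neither passed. When the replicate pairs formed a block, ERBB2 fell by 0.32 (interval -0.53 to -0.12, adjusted p 0.0258) and ERBB3 fell by 0.35 (interval -0.56 to -0.13, adjusted p 0.0221). In that fit 14.9% of all tested genes were called lower. Whether 2 lower calls among the 6 tested receptors other than FGFR2 differ from that share was not tested. The exons of ERBB2 overlap 571 bases, or 5.53% of its length, with those of MIEN1 on the other strand, and EGFR-AS1 overlaps 186 bases of EGFR. No source used here states whether counting used strand, so reads there cannot be assigned.

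ERBB4, a neuregulin receptor, was close to undetected. It had 5, 7 and 6 reads in knockdown replicates 1 to 3 and 7, 4 and 12 reads in control replicates 1 to 3, which is 0.189 to 0.275 CPM in knockdown libraries and 0.133 to 0.343 CPM in control libraries. ERBB4 was removed by the filter on low counts, which 7 of the 8 receptors passed, and no change could be measured at this depth.

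Calls without a block are those of the edgeR fit with the filter on low counts, unless another fit is named. In that fit 1 of the 7 tested receptors was called, FGFR2, beside 7.60% of all 21101 tested genes (2.72% higher and 4.88% lower). Nothing is read from that count, since the rise of FGFR2 chose the set. For the other 6 tested receptors the calls were 0 in edgeR, DESeq2 and limma-voom alike, and 0 reached an unadjusted p below 0.05 in edgeR. Their log2 fold changes lay between -0.34 and 0.37. None of the 6 had group ranges without overlap, a pattern that 30.4% of all tested genes showed (13.4% higher and 17.0% lower). With the block 2 of these 6 were called, ERBB2 and ERBB3, beside 26.1% of all tested genes (11.2% higher and 14.9% lower).

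**Figure D3:**
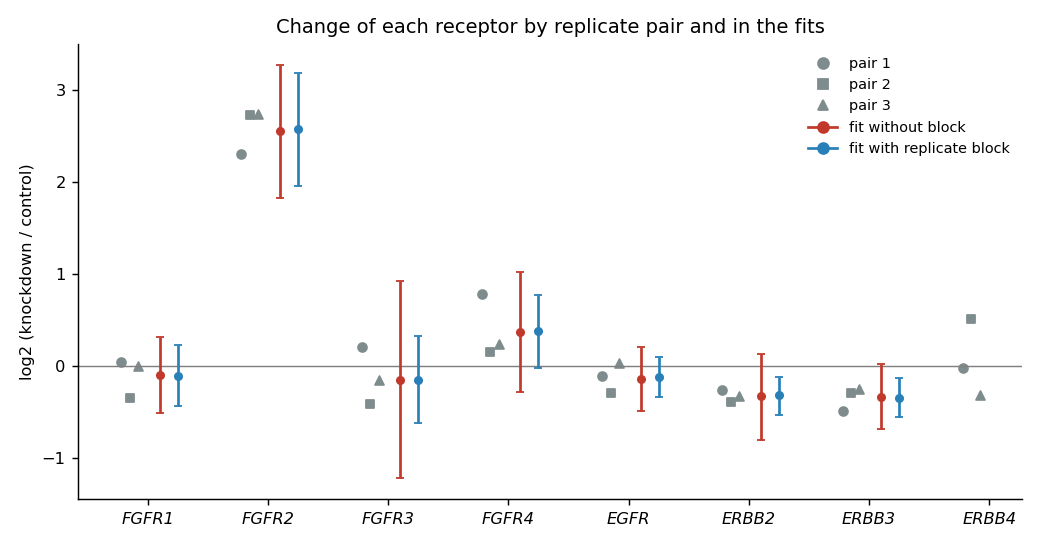
Log2 ratio of knockdown over control for each receptor, as the ratio in each replicate pair (grey symbols) and as the fitted change with its 95% interval without (red) and with (blue) the replicate block. The pair ratios of FGFR2 lie between 2.3 and 2.73, and since its rise chose it, its intervals are a description. The blue intervals of ERBB2 and ERBB3 end below 0, and ERBB4 has pair ratios from a few reads and no fit.

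The ligands of both families were scarce, and none was called in the filtered edgeR fit without the block. That fit called 7.60% of all tested genes, and the fit with the block 26.1%. Of 18 FGF ligands 5 passed the filter on low counts, with a median log2 fold change of 0.06, against 0 for all tested genes. FGF2, which binds several FGF receptors, was the most abundant at 7.5 ± 0.701 CPM in knockdown libraries and 7.18 ± 1.36 CPM in control libraries (named after its values were seen). FGF17 and FGF7, a stromal ligand of the epithelial form of FGFR2, had log2 fold changes of 0.87 and 1.04 (adjusted p 0.176 and 0.263), at levels near 1 CPM and below. Calls among the 5 were 0 in edgeR with or without the block, in DESeq2 and in limma-voom, and 1 had an unadjusted p below 0.05 in edgeR.

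Of 11 ERBB ligands 5 were tested, with a median of 0.47. Calls were 0 in the filtered edgeR fit without the block (beside 7.60% of all tested genes), in DESeq2 and in limma-voom. Of the 5, 3 had an unadjusted p below 0.05 in edgeR. Without the filter on low counts, edgeR without the block called NRG3 higher (adjusted p 0.00976) and EGF lower (0.0364). That fit called 1336 genes higher and 1812 lower over the whole table, against 574 and 1029 with the filter. With the block 4 of the 5 were called, 3 higher and 1 lower, beside 26.1% of all tested genes (11.2% higher and 14.9% lower). EGF, the founding ligand of EGFR, had 4.66, 9.43 and 10.85 CPM in knockdown replicates 1 to 3, against 9.12, 13.99 and 16.9 CPM in control replicates 1 to 3. It was lower in every pair and fell by 0.71 on the log2 scale with the block (adjusted p 0.00346, 0.238 without it). TGFA, another EGFR ligand, had 9.85, 5.38 and 9.3 CPM in knockdown libraries and 5.7, 3.63 and 5.85 CPM in control libraries, and rose by 0.68 with the block (adjusted p 0.00711, 0.176 without it). The neuregulins NRG3 and NRG4, ligands of ERBB4, rose by 1.55 and 0.47 with the block (adjusted p 0.0201 and 0.0367, against 0.154 and 0.16 without it). HBEGF, which binds EGFR and ERBB4, had a log2 fold change of 0.37 and was not called in either fit (adjusted p 0.274, 0.0834 with the block). AREG had at most 0.16 CPM in knockdown libraries and 0.04 CPM in control libraries. NRG1, a main ligand of ERBB3, had at most 0.03 CPM in knockdown libraries and 0 reads in all 3 control libraries.

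Among the proteins that help FGF to bind its receptor, GPC2, SDC2 and SDC3 rose. All 13 co-receptor and heparan sulfate proteoglycan genes were tested, and 3 were higher and 0 lower (23.1%, against 7.60% of all tested genes), with a median of 0.31. DESeq2 and limma-voom each called 3 higher and 1 lower. Over the whole table DESeq2 called 834 genes higher and 1490 lower, and limma-voom 593 and 1050. The glypican GPC2 had 11.57, 9.7 and 9.39 CPM in knockdown replicates 1 to 3, against 3.45, 3.8 and 4.42 CPM in control replicates 1 to 3. It rose by a log2 of 1.39 (SE 0.19, adjusted p 0.00495) and was called whichever library was left out. The syndecan SDC2 had 168.7, 84.94 and 50.19 CPM in knockdown libraries and 39.69, 15.15 and 14.04 CPM in control libraries. Replicate 1 was the highest in both groups, and SDC2 rose by 2.14 (SE 0.5, adjusted p 0.0364). SDC2 was no longer called when knockdown replicate 1 (log2 fold change 1.55, adjusted p 0.0695) or 2 (0.0889) was dropped, or when control replicate 2 (0.0823) or 3 (0.109) was. Those fits had no block, and with all libraries and the block SDC2 rose by 2.14 (SE 0.13, adjusted p 6.72e-07).

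SDC3 rose by 0.69 (adjusted p 0.0248), and dropping any 1 library except control replicate 2 ended that call, with adjusted p up to 0.0826. The 3 higher calls became 1 without knockdown replicate 1 or 2 or control replicate 3, and 2 without any of the others. With the block 4 genes were higher and 2 lower, beside 11.2% and 14.9% of all tested genes. GPC6 joined the higher ones, and SDC4 and KL, a co-receptor for FGF23, were lower. FGFRL1, a receptor-like gene without a kinase, averaged 129 ± 15.6 CPM in knockdown libraries and 150 ± 23.1 CPM in control libraries and was not called (log2 fold change -0.21, adjusted p 0.426).

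Downstream of the receptors, MAP2K1 and NRAS fell and most adaptors did not pass the test. Of 21 tested adaptors and RAS-ERK cascade genes 0 were higher and 2 lower (9.52%, against 7.60% of all tested genes), with a median of -0.15. MAP2K1, the kinase MEK1, had 62.01, 62.18 and 52.34 CPM in knockdown replicates 1 to 3, against 119.6, 110 and 125.4 CPM in control replicates 1 to 3. It fell by 1.01 (SE 0.13, adjusted p 0.00334), or 2.01-fold, and was called whichever library was left out. The RAS gene NRAS had 86.96, 67.91 and 67.4 CPM in knockdown libraries and 152.6, 118.5 and 121.8 CPM in control libraries, and fell by 0.82 (SE 0.15, adjusted p 0.0163). Dropping knockdown replicate 2 or 3 or control replicate 1 ended that call, with adjusted p up to 0.0838. MAP2K2 and HRAS had log2 fold changes of 0.11 and -0.09 without a call. FRS2, which docks FGF receptors to GRB2, was 0.36 higher (adjusted p 0.13, called with the block at 0.0238), and GRB2 itself had -0.15 (adjusted p 0.462). With the block 2 of the list were higher and 4 lower, beside 11.2% and 14.9% of all tested genes. GAB1 and FRS2 were the higher ones, and MAPK3 was among the lower ones.

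Genes that restrain the receptors and genes that report ERK output were not called in the filtered edgeR fit without the block, while some were in other fits. Calls among 13 inhibitor and turnover genes were 0 in edgeR (beside 7.60% of all tested genes), DESeq2 and limma-voom. Of the 13, 3 had an unadjusted p below 0.05 in edgeR, and the median was 0.18. ERRFI1, which binds and blocks the EGFR kinase, had 60.83, 62.47 and 61.45 CPM in knockdown libraries and 47.38, 42.26 and 48.18 CPM in control libraries. The groups did not overlap, but its log2 fold change of 0.42 missed the threshold (adjusted p 0.0631, called with the block at 0.00922, with library totals at 0.0276 and with the stricter filter at 0.0457). The ubiquitin ligase CBLB had 0.51 (adjusted p 0.0811, with the block 0.00928), and LRIG1, which lowers ERBB receptor protein, had 0.18 (adjusted p 0.726).

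Calls among 14 tested ERK feedback and target genes were 0 in edgeR (beside 7.60% of all tested genes) and limma-voom and 1 in DESeq2. Over the whole table DESeq2 called 834 genes higher and 1490 lower, against 574 and 1029 in edgeR. Of the 14, 3 had an unadjusted p below 0.05 in edgeR. SPRY1, SPRY2, DUSP6 and ETV4, which FGF signalling is known to induce, had log2 fold changes of -0.06, 0.15, -0.05 and 0.32, with adjusted p from 0.604 to 0.948. ETV5 was below the filter, at 0.11 to 0.3 CPM in knockdown libraries and 0.1 to 0.37 CPM in control libraries. Without the filter on low counts, edgeR without the block called 3 of the list higher, EGR1 among them (adjusted p 0.00183). That fit called 1336 genes higher over the whole table, against 574 with the filter. The immediate early genes EGR1 and FOS were called higher with the block (2.27 and 1.13, adjusted p 0.00912 and 0.016), as was the phosphatase DUSP4 (1.13). With the block 3 of the 14 were higher and 0 lower, beside 11.2% and 14.9% of all tested genes. EGR1 stayed under 1 CPM in every library.

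**Figure D4:**
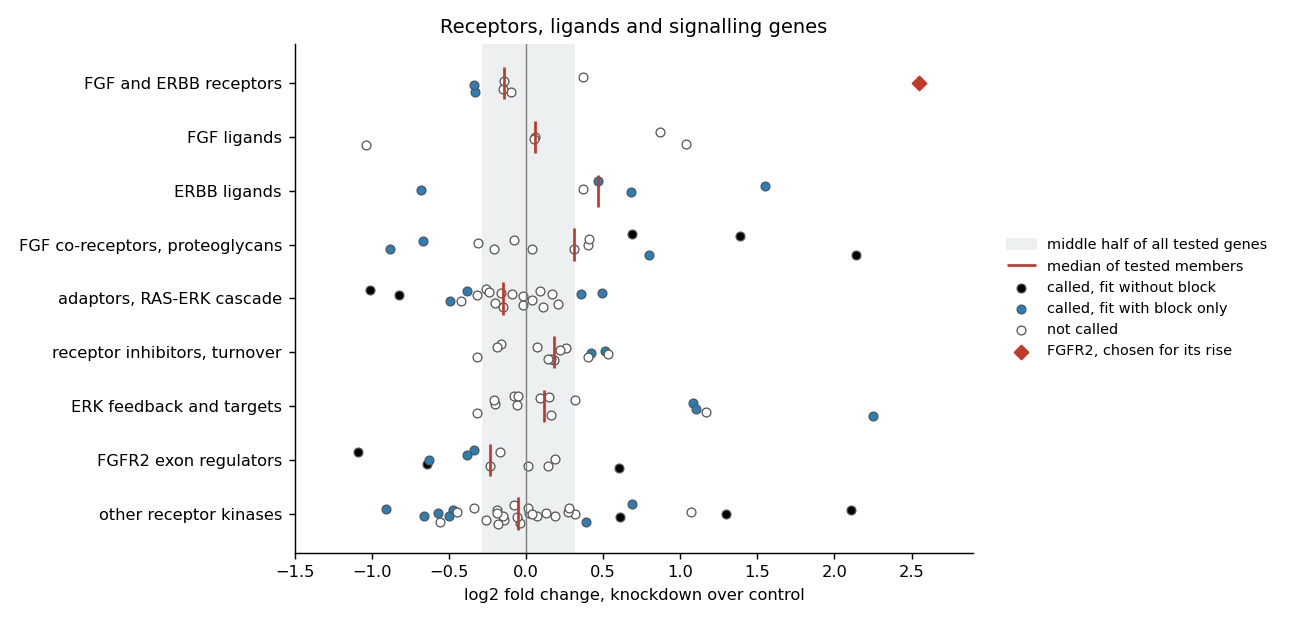
Log2 fold change (knockdown over control, fit without block) of each tested gene in 9 lists, with black points called without the block, blue points called with the block but not in that fit, open points not called, red bars for list medians and a grey band for the middle of all tested genes (from -0.28 to 0.31). GPC2 and SDC2 stand right of 1 among the proteoglycans, and FGFR2 is drawn as a diamond because it was chosen for its rise.

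Regulators of exon choice were included because the FGFR2 forms differ by mutually exclusive exons. All 11 were tested, and 1 was higher and 2 lower (27.3%, against 7.60% of all tested genes), with a median of -0.23. PTBP1, which represses the epithelial exon of FGFR2 in other cells, had 74.59, 100.8 and 82.15 CPM in knockdown replicates 1 to 3, against 174.9, 226.1 and 148.8 CPM in control replicates 1 to 3. It fell by 1.09 (SE 0.18, adjusted p 0.0101) and was called whichever library was left out. RBFOX2, another factor known to act on that exon pair, averaged 136 ± 15.9 CPM in knockdown libraries and 89.8 ± 6.67 CPM in control libraries and rose by 0.6 (adjusted p 0.0285). Dropping any 1 library except control replicate 1 ended the RBFOX2 call, with adjusted p up to 0.0955. CELF1, an RNA-binding splicing factor, fell by 0.64 (adjusted p 0.0119), and was not called when knockdown replicate 2 was dropped (0.0712). The epithelial splicing factors ESRP1 and ESRP2, which favour the epithelial form, had log2 fold changes of -0.23 and 0.01 (adjusted p 0.593 and 0.965). With the block 1 was higher and 5 lower, with HNRNPH1, HNRNPM and SRSF6 added, beside 11.2% and 14.9% of all tested genes. Splicing of FGFR2 itself was not measured.

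Among 50 other receptor tyrosine kinases 32 were tested, and 3 were higher and 0 lower (9.38%, against 7.60% of all tested genes), with a median of -0.05. ROR1, a WNT5A receptor with little kinase activity, had 40.48, 31.57 and 33.2 CPM in knockdown replicates 1 to 3, against 14.71, 13.82 and 14.3 CPM in control replicates 1 to 3. It rose by 1.3 (SE 0.15, adjusted p 0.00255) and was called whichever library was left out. AXL, a receptor for GAS6, was scarce, with 0.91, 1.32 and 0.96 CPM in knockdown libraries and 0.08, 0.27 and 0.37 CPM in control libraries. AXL rose by 2.11 (SE 0.46, adjusted p 0.0278), and dropping knockdown replicate 2 or 3 or control replicate 1 or 2 ended that call, with adjusted p up to 0.123. The ephrin receptor EPHB4 rose by 0.61 (adjusted p 0.0499), and dropping any 1 library ended that call, with adjusted p up to 0.148. The 3 higher calls were 1 or 2 whichever library was left out. IGF1R was lower in every pair and was called with the block, in DESeq2 and without the filter on low counts (log2 fold change -0.91, adjusted p 0.124, with the block 0.000306), while INSR (-0.04) and MET (-0.19) were not called in either fit. With the block 5 of these kinases were higher and 5 lower, beside 11.2% and 14.9% of all tested genes.

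**Figure D5:**
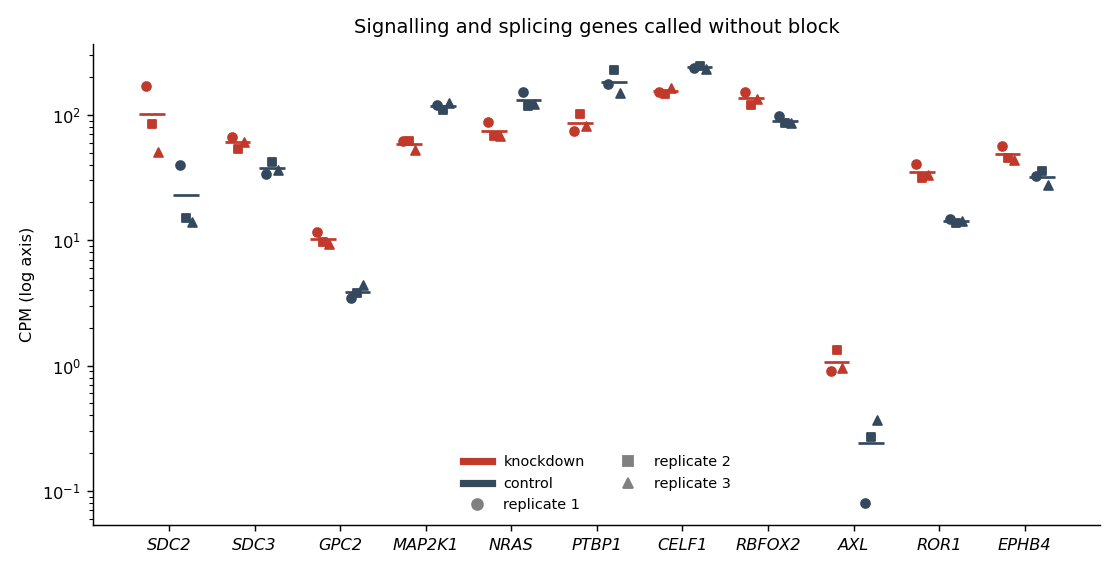
CPM on a log axis of the 11 signalling and splicing genes called without the block, in knockdown (red, left) and control (dark) libraries, with symbols for replicates and bars for means of 3. The ranges of the 2 groups do not overlap for any of the 11, a pattern that 30.4% of all tested genes showed. The 11 were drawn because they were called, so this adds no support. MAP2K1, NRAS, PTBP1 and CELF1 are the ones lower in knockdown libraries.

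The genes beside FGFR2 on its chromosome were not called. The nearest tested coding genes on either side of FGFR2 were WDR11 and ATE1, 568810 and 141963 bases away. WDR11 averaged 105 ± 6.44 CPM in knockdown libraries and 113 ± 13 CPM in control libraries (log2 fold change -0.1, interval -0.39 to 0.19, adjusted p 0.661). ATE1 averaged 72.3 ± 4.45 CPM in knockdown libraries and 84.5 ± 11.6 CPM in control libraries (-0.23, interval -0.53 to 0.08, adjusted p 0.344). Over the 16 such neighbours of the 8 receptors, 1 was higher and 1 lower, beside 2.72% and 4.88% of all tested genes. In the fit with the block 1 was higher and 5 lower, beside 11.2% and 14.9%, and no difference from these shares was tested. The higher one was CPS1, 696610 bases from ERBB4 (0.89, adjusted p 0.0133, up to 0.0617 without knockdown replicate 2 or 3). The lower one was PA2G4, 814 bases from ERBB3, whose product is known to bind the ERBB3 protein. PA2G4 had 128.4, 117.4 and 113.7 CPM in knockdown replicates 1 to 3, against 218.9, 185.2 and 158.9 CPM in control replicates 1 to 3, and fell by 0.65 (adjusted p 0.0288, up to 0.117 without knockdown replicate 2 or 3 or control replicate 1). These neighbours were chosen by position after the receptors' values were seen.

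The coding genes whose log2 CPM followed FGFR2 most closely over the 6 libraries were PCDHB13, CCSER2, SARNP, KCNS2 and N4BP1, with Pearson r of 0.9988, 0.9987, 0.9964, 0.9962 and 0.9962. Within the groups, the correlations of the deviations from the group means were 0.98, 0.98, 0.94, 0.92 and 0.92. These genes were picked for a high r over the same libraries, which fixes such values, so they are a description. PCDHB13, a protocadherin, averaged 10 ± 1.65 CPM in knockdown libraries and 2.82 ± 0.612 CPM in control libraries (log2 fold change 1.83). In the filtered fit without the block the others had log2 fold changes of 0.46, 0.26, 0.59 and 0.33. Likeness to a gene chosen for its rise favours a rise, so these fold changes are given without a test. In all, 195 of 12543 coding genes reached an r of at least 0.95, over only 6 libraries that share group and replicate number, so this is a description.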

How the data were processed

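RNA sequencing of 3 knockdown and 3 control LNCaP libraries was analysed from the deposited table of whole-number read counts per gene. Per the submitters' processing notes, the authors used bcl2fastq, STAR 2.5 on hg38, featureCounts of Subread 1.6.5 and edgeR 3.20.8. The annotation release and strand setting are not given in the sources used here. The gene length in bases is the authors' deposited value. The table had 0 rows without a gene name.

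Counts were fitted here with edgeR 4.0.16 in R 4.3.3: TMM scaling, filterByExpr, a two-sided quasi-likelihood F test over 21101 genes and Benjamini-Hochberg adjustment, with an adjusted p under 0.05 called. The SE is the log2 fold change divided by the square root of F, and intervals (95%) use the moderated degrees of freedom. Counts of genes with an unadjusted p below 0.05 stand without the share over all tested genes, so nothing is read from them. RPKM is scaled CPM per kilobase. DESeq2 1.42.0 and limma 3.58.1 were alternatives, with other scalings and filters, thinned counts, a replicate block and each library left out. The fits were tested on simulated data.

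Titles carry the numbers 1 to 3 in each group, and the submitters describe biological replicates. Over the tested genes, deviations from the group means correlated at 0.554, 0.381 and 0.358 for equal numbers and at -0.39 to 0.0602 for unequal ones, so the numbers pair the libraries. The main fit has no block, and blocked values stand where they change a call.

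Receptors and lists were chosen with earlier results of these data known. Named genes were the receptors, WDR77, PRMT5, up to 6 called genes (or the 2 with smallest p) of each list, 20 genes fixed by symbol and the 5 coding genes most like FGFR2. Genes named for a call in the block fit, MAP2K2 and HRAS were picked after their values were seen. Residual degrees of freedom were 4 without and 2 with the block. Some results are not reported here.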

Additional observations from a re-analysis of the deposited data

How the results depend on the processing

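The log2 fold change of FGFR2 ran from 2.34 to 2.78 whichever library was left out and was 2.98 with counts thinned to the smallest library; the cause was not tested. With 1 library of a group left out, the mean share of FGFR2 in the FGF receptor sum ran from 10.7 to 14.6% in knockdown libraries. In control libraries that mean ran from 2.21 to 3.45%. With the replicate block, 2 receptors were called lower against 0 without it (ERBB2 at -0.32 and ERBB3 at -0.35), genes called over the whole table were 2358 higher and 3148 lower against 574 and 1029 without it, and pathway genes were 20 higher and 17 lower against 7 and 4. The block ended no call among the named genes. Several genes whose call ended when a library was dropped were called with the block and all libraries. Their adjusted p with the block were 6.72e-07 for SDC2, 5.19e-05 for NRAS, 0.000507 for CELF1 and 0.000734 for RBFOX2. For PRMT5, SDC3, EPHB4 and AXL they were 0.00165, 0.00178, 0.00244 and 0.00268. Without a filter on low counts the table had 1336 higher and 1812 lower calls, and the pathway lists 13 and 9. DESeq2 called 7 pathway genes lower, beside 1490 lower over the table. Leaving out 1 library gave 168 to 500 higher and 329 to 923 lower calls over the table, and 2 to 4 higher and 2 to 5 lower in the pathway lists, with the fewest in all 4 counts without knockdown replicate 2. Those fits have fewer samples, carry no block and split a replicate pair. Of 675 recomputed fold changes of 49 named genes, none changed sign with a call on either side, and 21 changed sign with no call. ERBB4 and the untested ligands, at a few reads a library, are limited by depth.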
